A study of Mus musculus with 12 samples.

Results

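The genes described here are 8 members of the complement system, measured in BV2, a line of immortalized microglia from the mouse: factor B (Cfb), C3, properdin (Cfp), the C1q chains C1qa, C1qb and C1qc, and the anaphylatoxin receptors C3ar1 and C5ar1. They were taken from a named list by gene symbol, and all 8 were found among 43432 gene identifiers. The list sets the alternative pathway against the C1q chains as moving in opposite directions with LPS. Of its alternative pathway members only Cfb was called higher with LPS, and C3 and Cfp were not called. Of them, 7 passed the filter on low counts that left 12705 genes for testing, and C1qa did not. RNA was sequenced from 12 libraries in 6 groups of 2: untreated cells, cells given lipopolysaccharide (LPS, the bacterial endotoxin that activates TLR4) at 100 ng/mL, and cells given the same LPS after 6-gingerol or 6-shogaol at 10 or 30 µM. All compound groups also received LPS, 1 h after the compound, and serum had been withdrawn 24 h after seeding, 4 h or more before treatment. The time from LPS to harvest is not given in the labels. No label says that the replicates were separate cultures, so p-values measure only the spread between these samples. 6-Gingerol and 6-shogaol are pungent phenols of ginger, and 6-shogaol is the dehydration product of 6-gingerol, with an unsaturated ketone in place of the hydroxy ketone.

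Complement is a cascade of secreted proteases that tags particles and cells for uptake. In the classical pathway C1q, built from A, B and C chains, binds a target and activates the proteases C1r and C1s, and in the alternative pathway factor B joins C3b to form a C3 convertase that properdin stabilizes. Both routes cleave C3, which releases C3a, and then C5, which releases C5a. The fragments C3a and C5a act on C3ar1 and C5ar1. In the brain, microglia are a main source of C1q, and C1q and C3 are known for marking synapses for removal.

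Library totals ran from 16534960 to 21179867 expected counts. Of 12 microglial marker genes, 8 were above 1 CPM (counts divided by library size, on a common scale) in each group, with a summed level of 1444 to 1447 CPM untreated, 1850 to 1907 with LPS and 1635 to 1657 with LPS and 30 µM 6-shogaol. Among the markers that define microglia in tissue, Sall1 was at 0 in every group, Fcrls was at 0 in all groups but 1, P2ry12 and Cx3cr1 had group means below 1 CPM, and Tmem119 had group means of 3.07 to 5.64 CPM. Of 7 astrocyte markers 1, Gja1, was above 1 CPM, and the list summed to 6.14 to 6.16 CPM untreated, 15.81 to 17.01 with LPS and 8.73 to 10.2 with LPS and 30 µM 6-shogaol. Aqp4 and Slc1a3 were at 0 in all groups, and the part of these RNAs in the results was not tested. No hepatocyte marker of 5 exceeded 1 CPM in any group mean. With 6-gingerol at 30 µM the hepatocyte list summed to 0 CPM in the first library and 1.01 CPM in the second.

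Cfb, the protease subunit of the alternative pathway convertase (ENSMUSG00000090231, GRCm38 chr17:34856374-34862518, minus strand), was the member with the widest range. It stood at 0.308 and 0.233 CPM in the untreated libraries, from 6 and 5 counts, and at 260.8 and 266.9 CPM with LPS. With 6-gingerol it was 227.4 and 240.8 CPM at 10 µM and 226.2 and 218.5 CPM at 30 µM. With 6-shogaol it was 88.1 and 80.5 CPM at 10 µM and 7.63 and 7.33 CPM at 30 µM. None of the 6 groups overlapped another, and the order from high to low was LPS, 6-gingerol at 10 µM, 6-gingerol at 30 µM, 6-shogaol at 10 µM, 6-shogaol at 30 µM, untreated. The neighbours at the top of that order, LPS and the 6-gingerol groups, did not differ past the threshold.

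**Figure D1:**
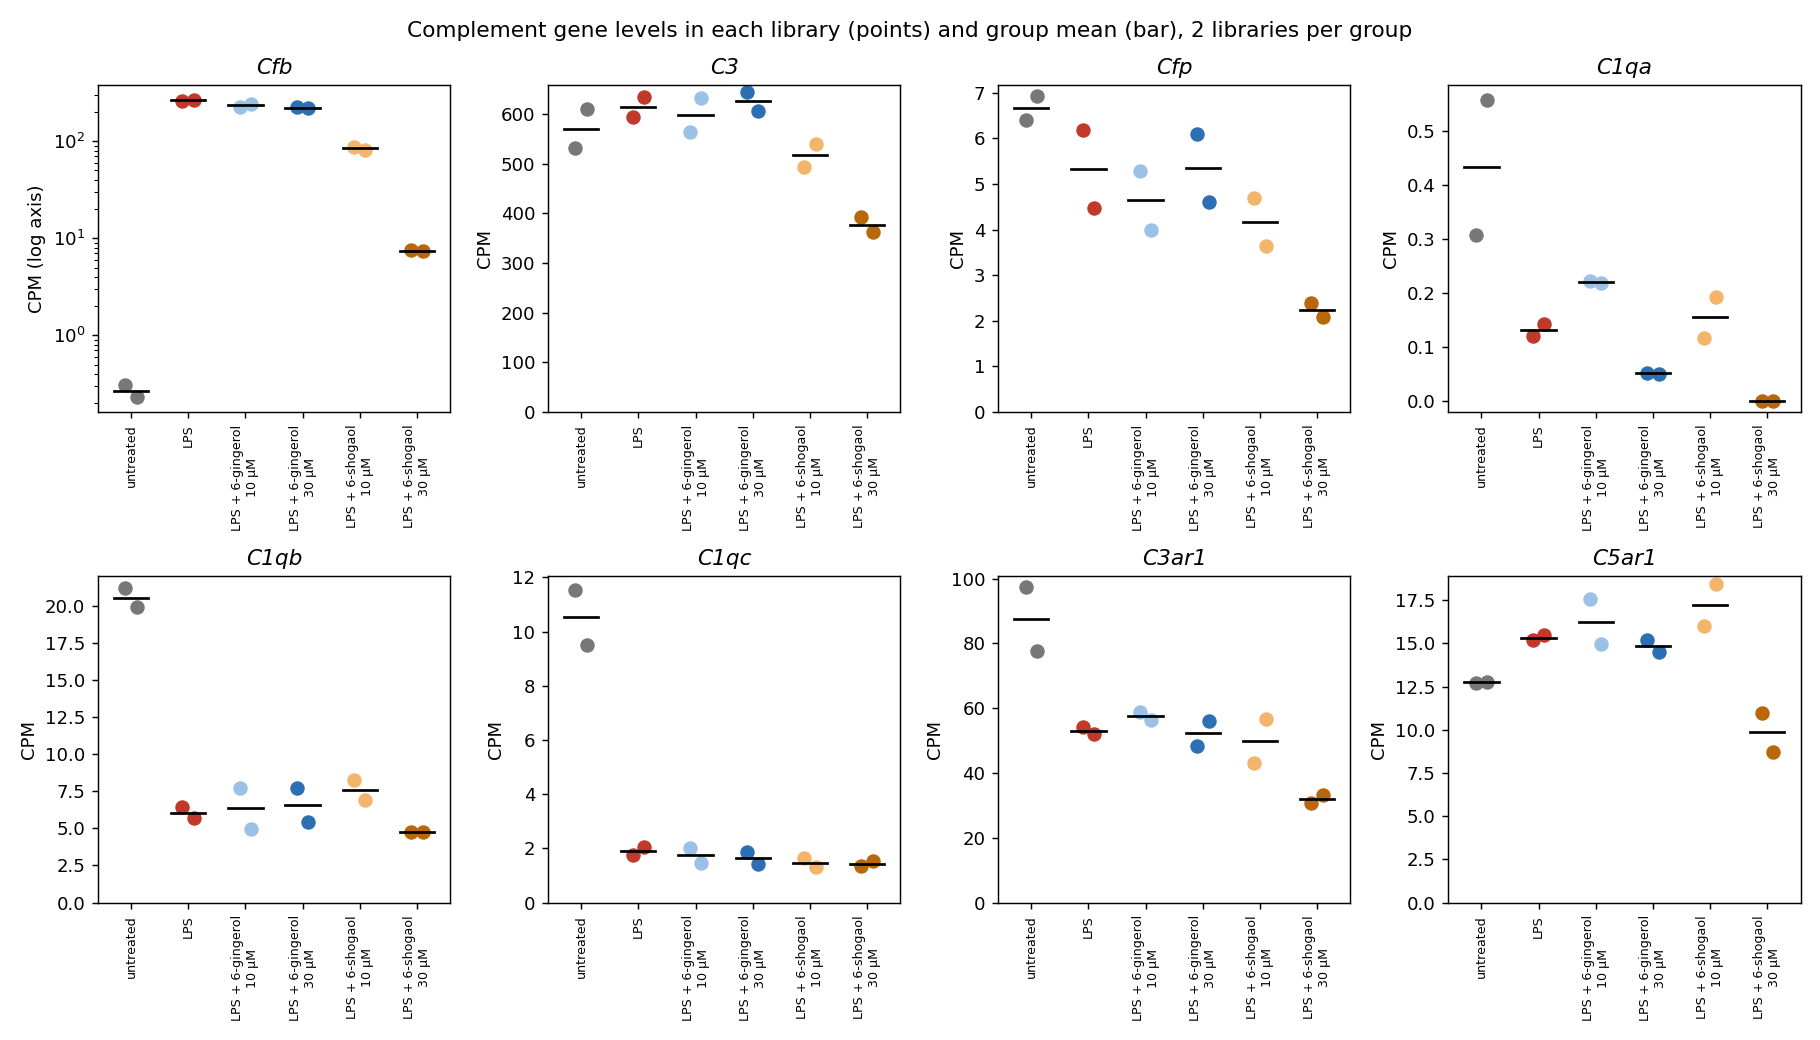
Levels of the 8 complement genes in CPM for each of the 12 libraries (points), with the mean of each group of 2 libraries (bar). The Cfb axis is logarithmic, that of C1qa starts just below 0 and the others start at 0. Cfb spans 0.233 to 266.9 CPM, and the C1q chains are highest in the untreated libraries. The libraries with 30 µM 6-shogaol are lowest for C3, Cfp, C1qb, C3ar1 and C5ar1. C1qa, which has few counts throughout, is at 0 there. The share of all genes with this order was not computed.

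Because the list names the opposite movement with LPS, the difference of LPS from untreated is a description. The log2 difference was 9.91 for Cfb (SE 0.17, 95% interval 9.55 to 10.26), -1.77 for C1qb (SE 0.20), -2.45 for C1qc (SE 0.22) and -0.72 for C3ar1 (SE 0.14). These 4 of the 7 tested members passed an edgeR adjusted p of 0.05, 1 higher and 3 lower, where 11.8% of all genes tested did (7.66% higher, 4.16% lower). C3, C5ar1 and Cfp lay at 0.11 (-0.13 to 0.34), 0.27 (-0.03 to 0.56) and -0.34 (-0.79 to 0.12). Factor B and properdin, which act in the same convertase, had estimates of opposite sign, that of properdin with an interval that held 0. The median over the 7 members was -0.34 beside -0.03 over all genes tested. The comparisons with LPS or untreated libraries below share libraries with this one, whereas those of 6-shogaol with 6-gingerol, and of the doses of 1 compound, do not.

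With 6-shogaol Cfb fell in a dose-ordered way. Against LPS alone the log2 difference was -1.65 at 10 µM (SE 0.09, edgeR adjusted p = 1.73e-07), which left 31.9% of the LPS mean. At 30 µM it was -5.14 (SE 0.11, edgeR adjusted p = 2.21e-13), which left 2.84%. The step from 10 to 30 µM was -3.49 (edgeR adjusted p = 4.38e-11). Even so, Cfb at 30 µM stayed above the untreated level, by 4.77 on the log2 scale (SE 0.22, edgeR adjusted p = 2.22e-09), on 6 and 5 untreated counts. With 6-gingerol the differences from LPS were -0.17 at 10 µM (-0.36 to 0.01) and -0.25 at 30 µM (-0.43 to -0.06, unadjusted p = 0.0133, edgeR adjusted p = 1). Compared directly at the same dose, Cfb was lower with 6-shogaol than with 6-gingerol by a log2 difference of -1.47 at 10 µM (SE 0.09, edgeR adjusted p = 8.02e-07) and of -4.89 at 30 µM (edgeR adjusted p = 4.18e-13). The read-through gene Gm20547 overlaps Cfb on the same strand, and adding its counts to those of Cfb changed no Cfb call.

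C3, the central component cleaved by both routes (ENSMUSG00000024164, GRCm38 chr17:57203970-57228136, minus strand), was the most abundant member. It measured 531.7 and 610.0 CPM untreated and 594.5 and 633.6 CPM with LPS. With 6-gingerol it measured 563.7 and 631.8 CPM at 10 µM and 644.5 and 606.8 CPM at 30 µM. With 6-shogaol it measured 494.2 and 539.5 CPM at 10 µM and 393.0 and 361.5 CPM at 30 µM. The libraries with 30 µM 6-shogaol lay below all others, and those with 10 µM lay below LPS but overlapped the untreated ones. C3 fell at 30 µM by 0.70 on the log2 scale against LPS (SE 0.11, edgeR adjusted p = 0.000367) and by 0.73 against 6-gingerol at 30 µM (edgeR adjusted p = 0.000287). It was also below the untreated level, with a log2 difference of -0.60 (edgeR adjusted p = 0.00132). At 10 µM the difference from LPS was -0.25 (-0.49 to -0.01, edgeR adjusted p = 0.443). The step between the doses, -0.45 (edgeR adjusted p = 0.0111), was lost without either the second 10 µM or the second 30 µM library (edgeR adjusted p = 0.116 and 0.111). The RefSeq promoter table (GRCm38.p6) held 6 of the 8 members, not Cfb and C1qa. The C3 promoter is shown because, of these 6, it alone held a match to the C/EBP motif TTGCNNAA on either strand, in capitals at chr17:57228137-57228386, minus strand, the 250 bases before the gene start:
C3: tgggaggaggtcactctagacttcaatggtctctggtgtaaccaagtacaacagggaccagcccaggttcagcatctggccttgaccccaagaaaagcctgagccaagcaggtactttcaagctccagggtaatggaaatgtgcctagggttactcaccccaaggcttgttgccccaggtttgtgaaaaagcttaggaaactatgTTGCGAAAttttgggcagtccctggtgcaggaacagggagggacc
This motif was in 9.56% of 32851 promoter windows of 250 bases, and the motifs searched were chosen after the sequences were seen.

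Cfp, properdin (ENSMUSG00000001128, GRCm38 chrX:20925454-20931555, minus strand), was expressed at a low level. It measured 6.42 and 6.93 CPM untreated, 6.18 and 4.48 CPM with LPS, 5.28 and 4.00 CPM with 6-gingerol at 10 µM, and 6.11 and 4.61 CPM at 30 µM. With 6-shogaol it measured 4.69 and 3.63 CPM at 10 µM and 2.38 and 2.09 CPM at 30 µM. The 30 µM 6-shogaol libraries lay below all others, and the LPS, 6-gingerol and 10 µM 6-shogaol groups overlapped one another. Cfp fell at 30 µM by 1.24 on the log2 scale against LPS (SE 0.25, edgeR adjusted p = 0.00198), by 1.26 against 6-gingerol (edgeR adjusted p = 0.00171) and by 1.58 against untreated (edgeR adjusted p = 0.000258). The step from 10 to 30 µM was -0.89 (edgeR adjusted p = 0.0241) and was lost without the first 10 µM library or without either 30 µM library (edgeR adjusted p from 0.0666 to 0.17).

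The C1q genes sit side by side on chromosome 4, all on the minus strand: C1qb (ENSMUSG00000036905, GRCm38 chr4:136880129-136886187), C1qc (ENSMUSG00000036896, chr4:136889804-136893065) and C1qa (ENSMUSG00000036887, chr4:136895917-136898803). The upstream sequences of C1qb and C1qc are shown because both hold AGGAAGT, the core of the ETS factor PU.1 motif. It is read here on the other strand and given in capitals. The motif was chosen after the sequences were seen, and its part in the levels of these genes was not tested. Bases inside the GENCODE gene were left out, so C1qb shows 250 bases (GRCm38.p6 chr4:136886201-136886450) and C1qc 99 (chr4:136893066-136893164):
C1qb: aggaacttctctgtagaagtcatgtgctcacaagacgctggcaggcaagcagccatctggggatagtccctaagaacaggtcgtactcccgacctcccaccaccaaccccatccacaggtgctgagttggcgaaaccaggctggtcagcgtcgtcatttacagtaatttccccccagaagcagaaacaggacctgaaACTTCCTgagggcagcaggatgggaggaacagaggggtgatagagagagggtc
C1qc: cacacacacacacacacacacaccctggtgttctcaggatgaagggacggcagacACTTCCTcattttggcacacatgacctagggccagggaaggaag
The match lies 53 bases before the end of the C1qb window and 44 before that of C1qc. It also occurred in the full window of C5ar1, a gene whose level was not low with LPS, and in 7.69% of all 32851 windows. Of the other motifs searched on both strands, TGANTCA (AP-1) was in the window of C3ar1 (6.75% of windows), the NF-kB motif in the full window of C1qc (7.25%), and the interferon response element (ISRE) motif in none of the 6 (2.98%).

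C1qb measured 21.2 and 19.9 CPM untreated and 6.42 and 5.67 CPM with LPS. With 6-gingerol it measured 7.73 and 4.98 CPM at 10 µM and 7.71 and 5.42 CPM at 30 µM. With 6-shogaol it measured 8.27 and 6.92 CPM at 10 µM and 4.76 and 4.73 CPM at 30 µM. Every library that received LPS lay below the untreated ones, and the LPS and 6-gingerol groups overlapped. Neither compound raised C1qb past the threshold against LPS: the log2 differences were 0.08 (-0.38 to 0.53) and 0.12 (-0.33 to 0.58) for 6-gingerol at 10 and 30 µM, and 0.33 (-0.12 to 0.78) and -0.34 (-0.82 to 0.13) for 6-shogaol. It remained below the untreated level with 6-shogaol at 10 µM (-1.44, edgeR adjusted p = 0.000139) and at 30 µM (-2.11, edgeR adjusted p = 3.68e-06). The 30 µM level was lower than the 10 µM level by 0.67 on the log2 scale (edgeR adjusted p = 0.0427), a call lost with DESeq2, limma-voom, a fragment length covariate and the authors' table (adjusted p from 0.0508 to 0.0775) and without any 1 of the 4 libraries (edgeR adjusted p from 0.0838 to 0.226).

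C1qc measured 11.6 and 9.49 CPM untreated and 1.76 and 2.05 CPM with LPS. With 6-gingerol it measured 2.001 and 1.48 CPM at 10 µM and 1.86 and 1.42 CPM at 30 µM. With 6-shogaol it measured 1.64 and 1.31 CPM at 10 µM and 1.34 and 1.52 CPM at 30 µM. All 8 libraries with a compound lay below the untreated ones, and the compound groups overlapped one another. The differences from LPS ran from -0.14 with 6-gingerol at 10 µM to -0.41 with 6-shogaol at 30 µM (-1.01 to 0.18), and none passed the threshold. Between the 6-shogaol doses the difference was -0.03 (-0.65 to 0.59). Against untreated, C1qc stayed lower at 10 µM (-2.84, edgeR adjusted p = 7.07e-07) and at 30 µM (-2.87, edgeR adjusted p = 6.87e-07). C1qa was nearly absent, with 6 and 12 counts untreated, 2 and 3 with LPS, 4 and 4 and then 1 and 1 with 6-gingerol at 10 and 30 µM, 2 and 4 with 6-shogaol at 10 µM, and 0 and 0 at 30 µM. The untreated level over both libraries was 0.439 CPM (exact Poisson 95% interval 0.26 to 0.694, counting error only). For the 0 counts at 30 µM a floor of 3 counts over both libraries, 0.0879 CPM, was used. The untreated value of 0.439 CPM was 5.0-fold that floor, with the counting error of the untreated libraries not included. The exact Poisson upper limit of the 0 counts was higher, 0.108 CPM, so 5.0-fold is not a lower bound. Without the count filter, a choice made after the data were seen, edgeR gave adjusted p = 0.00903 for 30 µM 6-shogaol against untreated. For LPS against untreated it gave 0.456. For 30 µM 6-shogaol it gave adjusted p = 0.192 against LPS, 0.524 against 6-gingerol at 30 µM and 0.163 against 10 µM 6-shogaol.

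On the deposited TPM scale (transcripts scaled to a common total), which divides by length and lets genes be compared, C3 exceeded Cfb 799.5 and 894.0 times in the untreated libraries. With LPS the ratio was 1.15 and 1.18, so the transcripts of both convertase components were at nearly the same level. It was 1.27 and 1.29 with 6-gingerol at 10 µM and 1.42 and 1.42 at 30 µM, 2.90 and 3.26 with 6-shogaol at 10 µM, and 23.5 and 22.6 at 30 µM. Cfb over C1qb was 0.00585 and 0.00603 untreated and 14.3 and 17.2 with LPS, a movement that the list already names. With 6-gingerol this ratio was 10.19 and 17.28 at 10 µM and 10.25 and 14.51 at 30 µM. With 6-shogaol it was 3.67 and 4.11 at 10 µM and 0.633 and 0.584 at 30 µM. C1qb was above C1qc in every library, 2.08 and 2.39 times untreated and 3.14 to 6.04 times in the libraries with LPS. The chains assemble in equal numbers in C1q, yet C1qa did not exceed 0.79 TPM in any library while untreated C1qb was at 24.0 and 26.5 TPM.

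**Figure D2:**
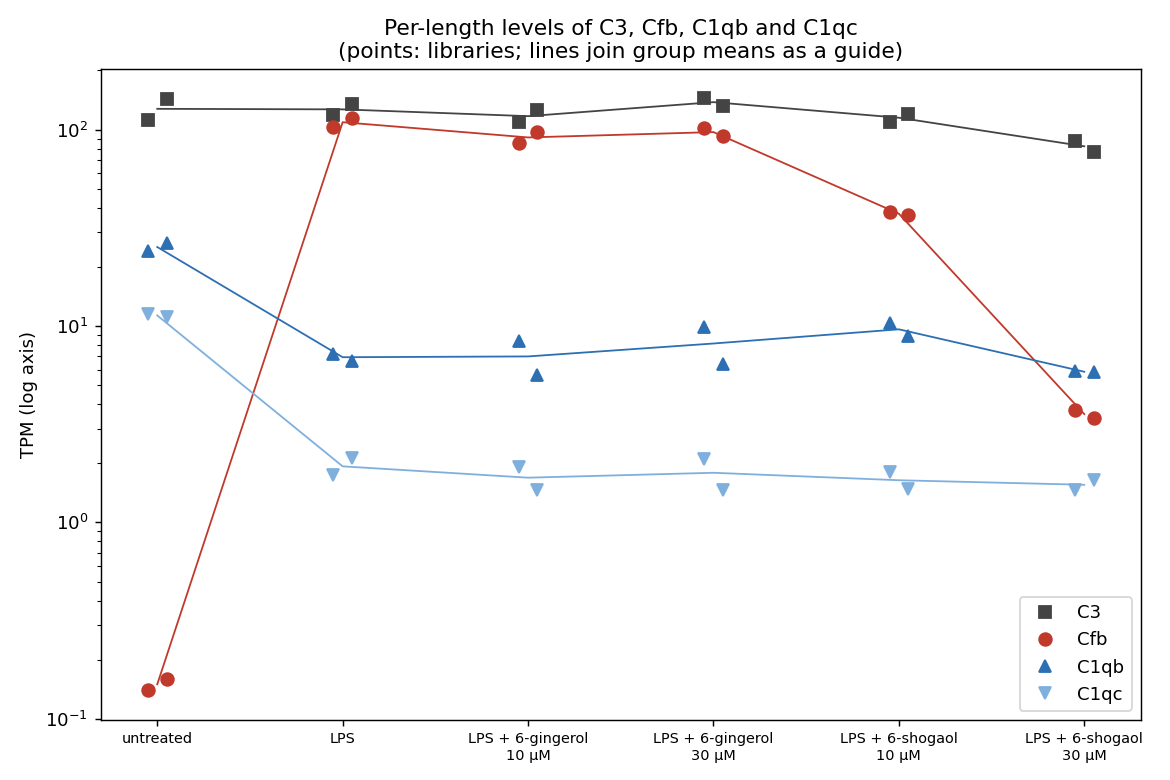
Deposited TPM on a log axis for C3, Cfb, C1qb and C1qc in each library, with lines joining group means only as a guide. Cfb climbs from 0.14 and 0.16 TPM untreated to just under C3 with LPS and lies below C1qb again with 30 µM 6-shogaol, while C1qb stays above C1qc throughout.

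C3ar1, the C3a receptor (ENSMUSG00000040552, GRCm38 chr6:122847138-122856161, minus strand), measured 97.6 and 77.5 CPM untreated and 54.3 and 51.9 CPM with LPS. With 6-gingerol it measured 58.9 and 56.5 CPM at 10 µM and 48.4 and 56.1 CPM at 30 µM. With 6-shogaol it measured 43.0 and 56.7 CPM at 10 µM and 30.7 and 33.2 CPM at 30 µM. The untreated libraries were above all others and the 30 µM 6-shogaol libraries below all others. C3ar1 fell at 30 µM by 0.73 on the log2 scale against LPS (SE 0.14, edgeR adjusted p = 0.00161) and by 0.71 against 6-gingerol (edgeR adjusted p = 0.002). Against untreated the differences were -0.81 at 10 µM (edgeR adjusted p = 0.00126) and -1.45 at 30 µM (edgeR adjusted p = 3.93e-06), so 30 µM moved it further from the untreated level. The step between the doses was -0.64 (edgeR adjusted p = 0.00564), and it was lost without the second 10 µM library (edgeR adjusted p = 0.112).

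C5ar1, the C5a receptor (ENSMUSG00000049130, GRCm38 chr7:16246743-16259540, minus strand), measured 12.7 and 12.8 CPM untreated and 15.2 and 15.5 CPM with LPS. With 6-gingerol it measured 17.6 and 15.0 CPM at 10 µM and 15.2 and 14.5 CPM at 30 µM. With 6-shogaol it measured 16.0 and 18.4 CPM at 10 µM and 10.99 and 8.73 CPM at 30 µM. The 30 µM 6-shogaol libraries lay below all others, and those with 10 µM had the highest mean. The step between the doses was -0.81 (edgeR adjusted p = 0.00122), and it held in every alternative run. C5ar1 fell at 30 µM by 0.64 on the log2 scale against LPS (SE 0.14, edgeR adjusted p = 0.00442) and by 0.59 against 6-gingerol (edgeR adjusted p = 0.0076). The first of these was lost without the second 30 µM library (adjusted p = 0.067) and on the authors' normalized table (limma, 0.115), and the second without that library (0.103), without the first 6-gingerol library at 30 µM (0.0523) and on that table (0.256). Against untreated the 30 µM difference was -0.37 (-0.68 to -0.06, edgeR adjusted p = 0.0746), and it passed the threshold without the first 30 µM library (0.0443).

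**Figure D3:**
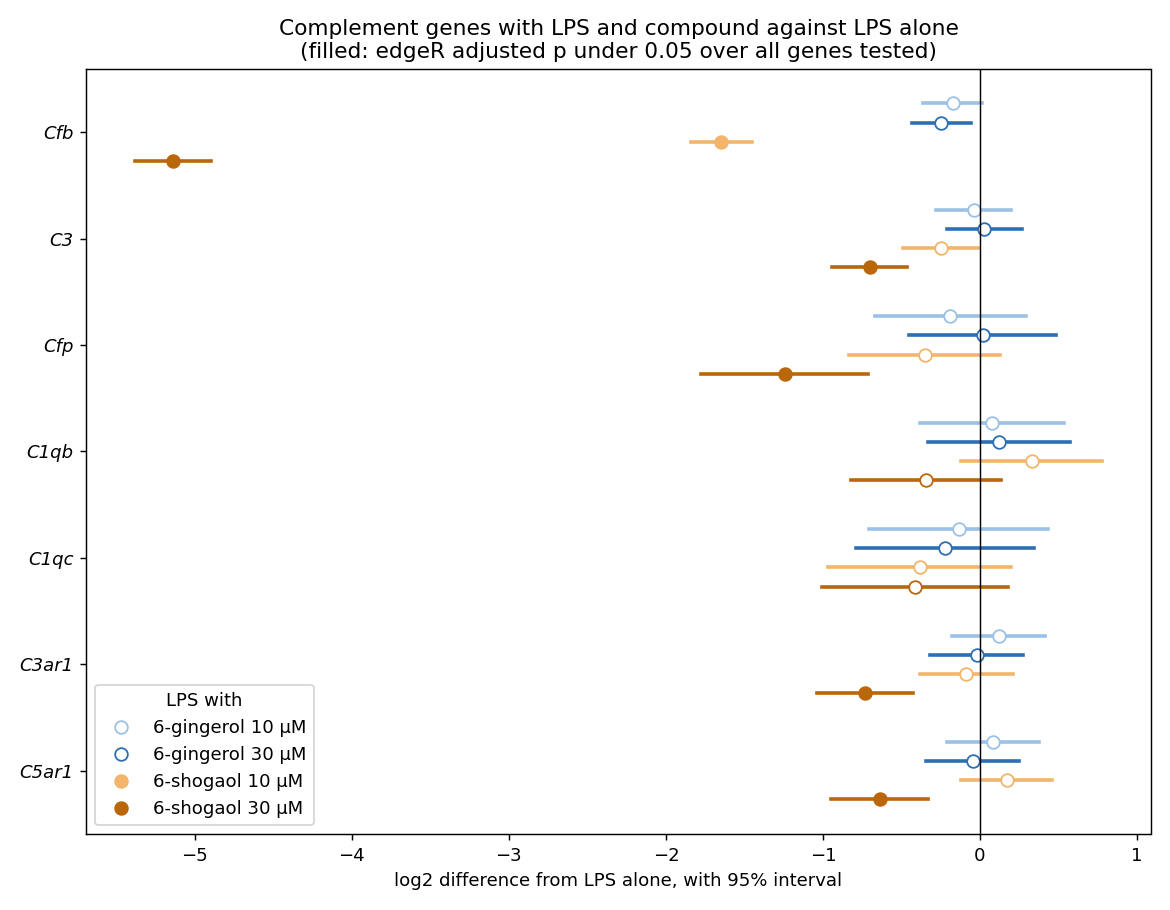
Log2 difference from LPS alone (point) with its 95% interval (line) for the 7 tested members and the 4 compound groups; filled points passed the edgeR adjusted p of 0.05. With 6-gingerol no point is filled, with 10 µM 6-shogaol only Cfb is, and with 30 µM the filled points are Cfb, Cfp, C3, C3ar1 and C5ar1.

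Counted over the tested members, 6-gingerol changed 0 of 7 against LPS at either dose and 0 of 7 between its doses in edgeR. Over all genes tested 0% were called at 10 µM and 0% at 30 µM (243 and 189 genes at an unadjusted p under 0.05), and 0.00787% between the doses. With 6-shogaol at 10 µM 1 member, Cfb, was called lower than LPS, where 0.638% of all genes were called (0.063% higher, 0.575% lower), and the same 1 was called lower than 6-gingerol at that dose (0.638% of genes, 0.0787% higher and 0.559% lower). At 30 µM 5 were called lower than LPS and 0 higher, where 12.8% of all genes were called lower and 12.6% higher (25.4% in either direction). The median over the members was -0.70 there, beside -0.0022 over all genes. Against 6-gingerol at 30 µM the count was again 5 lower, with 12.4% of all genes lower and 12.5% higher (25% in either direction). Between the 6-shogaol doses 6 were lower at 30 µM (9.54% of all genes lower, 9.85% higher, 19.4% in either direction). Against untreated, 4 members were called at 10 µM, 1 higher and 3 lower (8.76% of all genes, 5.88% higher and 2.88% lower), and 6 at 30 µM (25.4%, 13.3% higher and 12.1% lower). Of the latter 6, Cfb was higher and C1qb, C1qc, C3ar1, Cfp and C3 were lower. For the C1q chains at 30 µM the intervals of the difference between 6-shogaol and 6-gingerol, -0.94 to 0.00 for C1qb and -0.79 to 0.41 for C1qc, leave room for a decrease. At 10 µM the intervals for the 6 members other than Cfb all held 0, the widest being that of C1qc (-0.84 to 0.35). In bulk samples, fewer cells of a type and less RNA per cell cannot be told apart.

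Of 45 other complement genes, 21 passed the count filter and 24 did not. Of the latter, 11 had no count in any library, among them Cfd (factor D, the protease that activates factor B), Cfi and C6. The terminal genes other than C8g reached at most 4 counts in a library. C1s1 encodes C1s, a protease that acts downstream of C1q. It was 5.54 and 4.70 CPM untreated, 14.3 and 15.4 CPM with LPS, 9.68 and 12.5 CPM with 6-shogaol at 10 µM and 6.11 and 7.44 CPM at 30 µM. The LPS libraries lay above the others in this sequence. C1s1 rose with LPS by 1.54 on the log2 scale (SE 0.17, edgeR adjusted p = 1.66e-05) and fell at 30 µM 6-shogaol by 1.13 against LPS (SE 0.17, edgeR adjusted p = 0.000227) and by 1.15 against 6-gingerol (edgeR adjusted p = 0.000204). C1ra rose with LPS by 0.59 and fell at 30 µM by 0.43 against LPS. Both calls were lost without the second LPS library (edgeR adjusted p = 0.0819 and 0.159), and the second also without the second 30 µM library (0.146). C1s1 and C1s2, and C1ra and C1rb, are near-identical copies whose reads may be split between them, so their values are uncertain. Serping1, the inhibitor of C1r and C1s, rose with LPS from 2.77 and 2.37 to 5.15 and 5.90 CPM (1.11, edgeR adjusted p = 0.00229) and fell at 30 µM by 0.81 (edgeR adjusted p = 0.0111). The second call was lost without the second LPS library or without either 30 µM library (edgeR adjusted p from 0.056 to 0.101) and on the authors' normalized table (limma, adjusted p = 0.0545).

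In all, 4 of the 21 rose with LPS (C1ra, C1s1, Clu, Serping1) and 1 fell (Itgax), beside 7.66% of all genes tested that were higher and 4.16% lower. At 30 µM 6-shogaol 2 rose against LPS (Calr, Itgax) and 5 fell (C1ra, C1s1, C1s2, Serping1, Susd4), beside 12.6% of all genes higher and 12.8% lower. At 10 µM and with 6-gingerol 0 of 21 were called against LPS in edgeR. The median over the 21 was -0.0036 with LPS and -0.09 at 30 µM, beside -0.03 and -0.0022 over all genes tested. Calr, calreticulin, an endoplasmic reticulum chaperone that also binds C1q, was 388.5 and 413.3 CPM with LPS and 623.0 and 585.8 CPM at 30 µM, a log2 difference of 0.59 (SE 0.11, edgeR adjusted p = 0.000856). Its level at 30 µM was above that of every other group. Itgax, a chain of complement receptor 4, fell with LPS (-1.68, edgeR adjusted p = 0.0111) and rose at 30 µM against LPS (1.40, edgeR adjusted p = 0.0237), at levels below 2 CPM. The calls of Itgax, C1s2, Susd4, Clu and Itgam were each lost without at least 1 library. Of the 9 genes at 10 CPM or more in a group, Cr1l, Itgb2, C1qbp and Lrp1 were called in no comparison. Against untreated, C1s1 was still higher at 10 µM 6-shogaol, and at 30 µM Calr and Clu were higher and Itgam, a chain of complement receptor 3, lower.

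**Figure D4:**
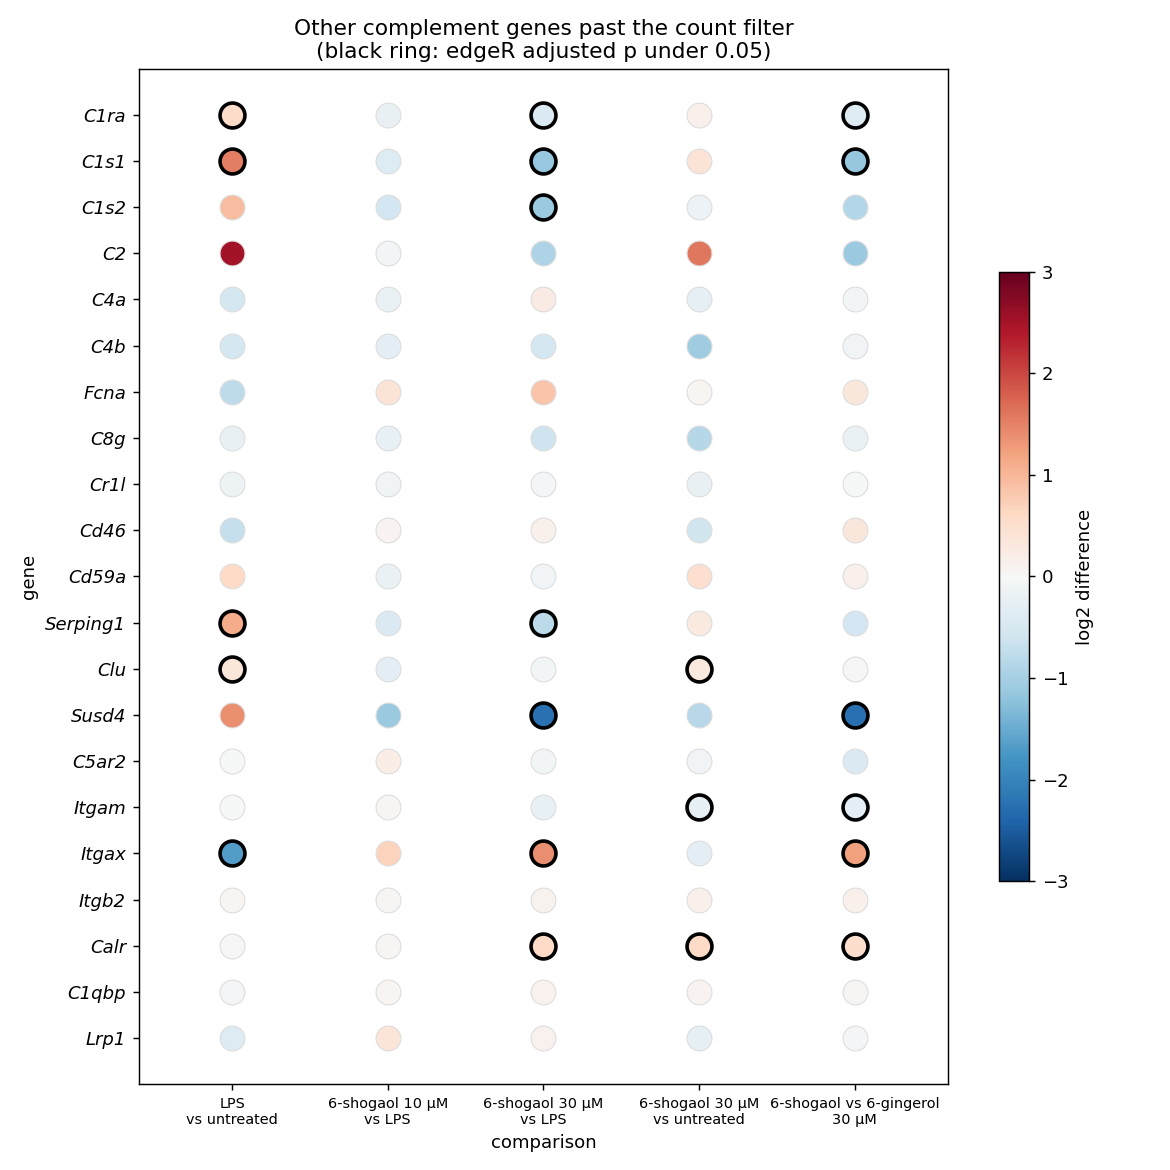
Log2 difference (colour) of the 21 other complement genes that passed the count filter in 5 comparisons, with a black ring at an edgeR adjusted p under 0.05. C1s1, C1ra and Serping1 are red with LPS and blue at 30 µM 6-shogaol against LPS and against 6-gingerol, and Itgax the reverse. At 30 µM 6-shogaol against untreated, C1s1, C1ra and Serping1 are on the red side and Itgax on the blue side, without rings.

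The genes whose pattern was most like that of each member were ranked by Pearson correlation of log2(CPM + 0.5) over the 12 libraries, among 11452 genes with a mean of at least 1 CPM. All points share the same 6 groups, so the coefficients are descriptions. For Cfb they were Tnf (0.998), Rhoq (0.997) and Ptges (0.995). Tnf, a cytokine, was 16.0 CPM untreated, 149.4 with LPS, and 93.1 and 40.5 with 6-shogaol at 10 and 30 µM, a much narrower range than that of Cfb. For C1qc they were Lsp1 (0.964), Hexim1 (0.953) and F5 (0.951), and for C1qb Rrp12 (0.958), Rcbtb2 (0.953) and Emc8 (0.952). C1qb and C1qc correlated at 0.944 with each other and at -0.674 and -0.766 with Cfb. For C5ar1 they were Tnfrsf9 (0.976), Irak2 (0.946) and Gpr84 (0.939), for C3ar1 Pmm2 (0.981), Mbtd1 (0.961) and Exo5 (0.948), for C3 Dnmbp (0.971), Atp11a (0.968) and Nfe2l1 (0.96), and for Cfp Dpp7 (0.966), Mcrs1 (0.948) and Wdr74 (0.947). Cfp and Cfb, of the same convertase, correlated at 0.014.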

How the data were processed

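RNA of 12 BV2 libraries was quantified by the authors, and per the file headers the deposited tables give RSEM expected counts, TPM and gene lengths in bases. A further table deposited by the authors holds a normalized signal per gene, whose scaling is not given in the sources used here. The submitters' processing notes name Trimmomatic 0.39, STAR 2.7.11b, RSEM 1.3.3, DESeq2 1.44.0 and GRCm38. Symbols and positions came from GENCODE M21, which matched 97.8% of identifiers.

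Expected counts were rounded, filtered with filterByExpr (minimum count 10), scaled by TMM and tested in edgeR 4.0.16 (R 4.3.3) by the quasi-likelihood F test, 2-sided, over all 12 libraries with 6 group means and 6 residual degrees of freedom. The threshold was a Benjamini-Hochberg adjusted p of 0.05 over 12705 genes. CPM levels use TMM library sizes, and each mean rests on 2 libraries. With 16534960 to 21179867 expected counts per library the 95% interval of a log2 difference had a median half-width of 0.294 for 6-shogaol at 30 µM against LPS. The script was tested on simulated data. Replicates differed beyond sampling noise in every group.

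Alternatives were DESeq2 1.42.0 as a test and as size factors, limma 3.58.1 (voom, and the authors' table), library totals, no filter, a replicate block, a fragment length covariate, the compared groups alone and each library left out. Named genes are all members, other complement genes by call, those at 10 CPM or more that were never called, and the 3 genes most like each member. One listed gene is not reported here. Members and lists were chosen with earlier results of these data known. The fit without the filter for C1qa was added after the data were seen.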

Additional observations from a re-analysis of the deposited data

How the results depend on the processing

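No called member or other complement result changed direction under the alternatives run, while some values that were not called changed sign. Of 32 member calls 26 held under every alternative and 6 did not, those of C5ar1 at 30 µM 6-shogaol against LPS and 6-gingerol and of Cfp, C3, C1qb and C3ar1 between the 6-shogaol doses. The 32 include calls of LPS and of 6-shogaol against untreated, from a list that names the movement with LPS. The share that held is therefore a description. Leaving out 1 library left 3 to 4 members called between those doses (6 with all libraries, 3 without the second library of either dose), 4 to 5 at 30 µM against LPS or 6-gingerol and 6 to 8 against untreated, where the counts above 6 include C1qa, which passed the filter in those fits through its untreated counts. Of 25 calls of other complement genes 9 held throughout (C1s1 in 4, Calr in 4, Serping1 with LPS) and 16 did not. Counts over all genes varied more: 81 genes for 10 µM 6-shogaol against LPS became 33 to 970 under other methods and 18 to 44 leaving out 1 library, and 81 against 6-gingerol became 41 to 419 and 16 to 49. For 6-gingerol against LPS, 0 genes became 28 at 10 µM and 27 at 30 µM without the filter, no member among them, and 1 between its doses became 0 to 49. Leaving out 1 library gave 768 to 1602 genes with LPS (1501), 1827 to 2171 at 30 µM 6-shogaol against LPS (3222), 1807 to 2157 against 6-gingerol (3171), 960 to 1685 between the doses (2463), and 499 to 2179 and 1980 to 3176 against untreated (1113 and 3229). Other methods gave 632 to 1620 and 2092 to 3527 for the last pair. With the replicate number as a block, Cfp was also called for 10 µM 6-shogaol against untreated (edgeR adjusted p = 0.0329, 5 members for 4), as it was without the filter (0.0117, with C5ar1 at 0.0488) and with the fragment length covariate (0.0154). Under the block no other member call changed, while the Susd4 calls were lost (0.0539 against LPS and 0.0516 against 6-gingerol). The difference between the replicates of a group, taken in number order, was correlated over 8941 genes with that of each other group. The coefficients ran from -0.659 to 0.477 over 15 pairs of groups (7 above 0.1). Pairs that included untreated or LPS had both signs, and pairs of compound groups were all positive (0.0774 to 0.477). The numbers therefore showed no pairing common to all groups. Whether they pair the libraries with a compound was not tested further. Depth limits C1qa and untreated Cfb, which rest on few counts.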
